A study of Mus musculus with 12 samples.

Results

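The cell cycle and DNA replication genes described here are 41 genes matched by symbol in liver RNA-seq of 12 mouse libraries, out of 16239 genes with a gene number in the files. They comprise 15 S phase members, 24 members of G2 and mitosis, called mitotic below, and 2 G1 members, Ccnd1 and Cdkn1a. All 41 were found in the files, and 40 passed the filter on low counts; Bub1, with 86 estimated counts over the 12 libraries together, did not. The mitotic members were rare transcripts. Their mean level over the 12 libraries ran from 0.0908 to 3.14 FPKM (fragments scaled to gene length and to the fragments of the library), with 17 of 24 under 1 FPKM, against 0.612 to 16.3 FPKM for the S phase members.

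The mice were 129/B6, 10 months old, and had been kept for 8 months on an LF or an HF diet, names that the labels do not spell out. Controls carried the floxed TSP1 gene (genotype labelled WT), and the other mice had TSP1, thrombospondin 1, knocked out in macrophages. No Cre driver is named in the sources used here. Each of the 4 groups (LF floxed, LF knockout, HF floxed, HF knockout) had 3 libraries of total RNA from flash-frozen liver. The labels do not say that replicates are separate animals, and any p-value here reflects variation among these libraries, which may be technical.

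Libraries held 16131506 to 16536016 estimated counts. Thbs1, which encodes TSP1, was at 0.11, 0.06 and 0.07 FPKM in LF floxed, 0.08, 0.55 and 0.55 in LF knockout, 0.75, 0.75 and 0.31 in HF floxed, and 0.16, 1.42 and 1.63 in HF knockout. It was not lower in the knockout groups. The deletion is labelled as specific to macrophages and the RNA is from whole liver, so this level does not check the genotype labels. Alb, the hepatocyte albumin gene, was at 20592.94 to 72054.23 FPKM. LF knockout 2 and 3 were unusually alike (median difference of 0.126 log2 units per gene), as were HF floxed 1 and 2 (0.181), against 0.28 to 0.653 for the other pairs within groups. Both pairs still differed by more than counting noise, so they were kept as separate libraries, and results are also given with each pair averaged. HF knockout 2 stood apart, with correlations of log counts across genes of 0.7813 and 0.8215 with its own group.

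The adult liver is mostly quiescent: hepatocytes rest outside the cell cycle and re-enter it after injury or loss of tissue. Entry through G1 depends on D-type cyclins and is braked by inhibitors such as p21. E2F factors then switch on the genes for replication, including the MCM helicase that loads at origins and the enzymes that make deoxynucleotides. In G2 and mitosis the B-MYB and FOXM1 complexes control a later set of genes that encode cyclin B, the mitotic kinases, spindle motors and kinetochore proteins. In whole liver RNA, a change in the number of dividing cells and a change in RNA per cell cannot be told apart.

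The mitotic members were higher on the HF than on the LF diet on average, in both genotypes, but unevenly between libraries. All 23 tested had a positive log2 difference in floxed livers (median 1.59) and in knockout livers (median 1.90), whereas the median over all 12587 genes tested was 0.00 and 0.03. The S phase members had medians of 0.33 and 0.02 in the same comparisons. No member passed a false discovery rate of 5% with edgeR's quasi-likelihood test in any of the 6 comparisons. The smallest adjusted p of a member was 0.19 (Tk1, HF against LF in floxed livers, edgeR with Benjamini-Hochberg adjustment).

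**Figure D1:**
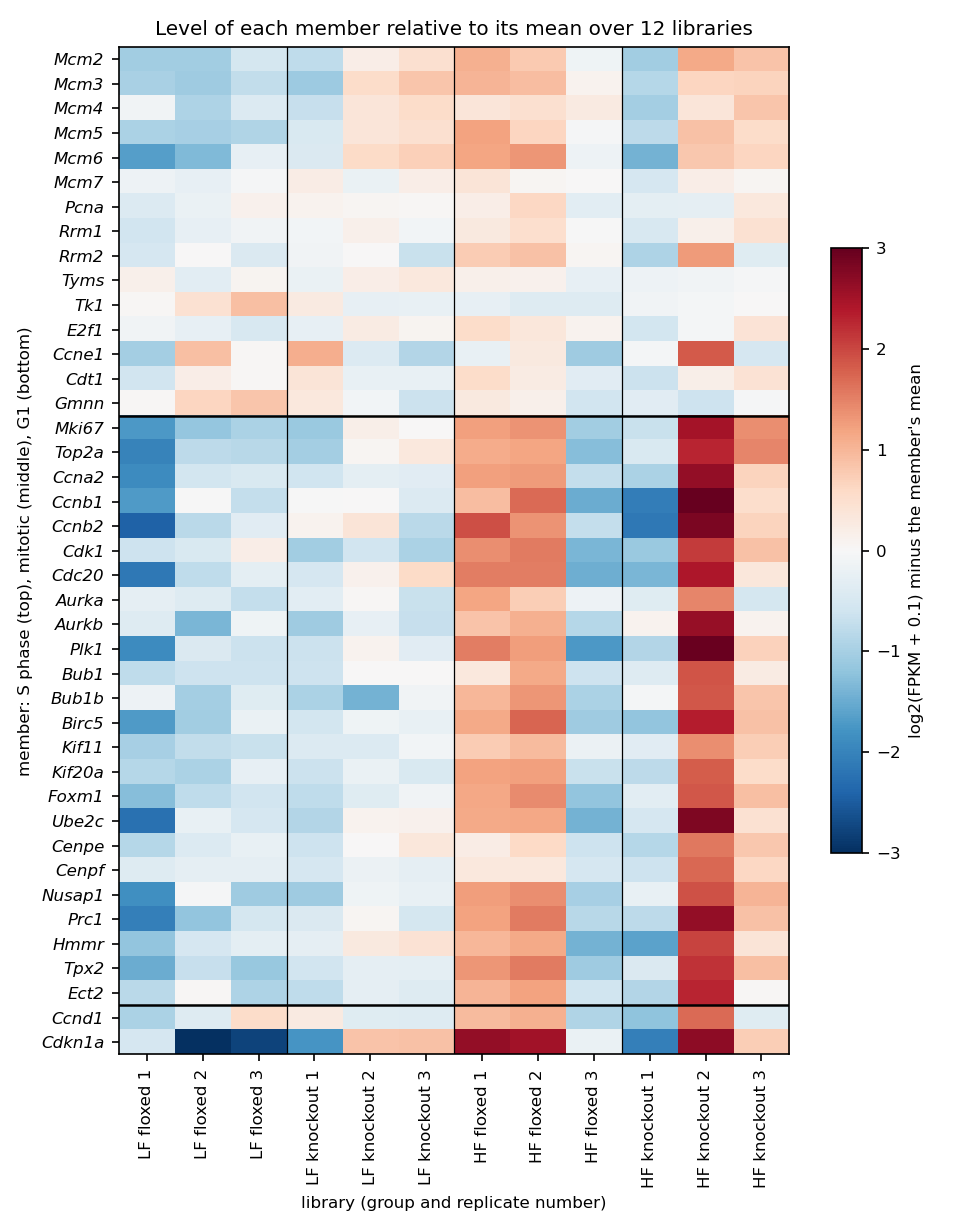
Heat map of log2(FPKM + 0.1) of each of the 41 members minus its own mean over the 12 libraries, with libraries as columns and S phase, mitotic and G1 members separated by lines; colours are capped at 3 log2 units. HF knockout 2 is the reddest column for the mitotic members, HF floxed 1 and 2 follow, and most S phase members other than Mcm2 to Mcm6 stay pale.

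The proliferation marker Mki67 (gene number 17345) was at 0.07, 0.15 and 0.19 FPKM in LF floxed livers and at 1.22, 1.33 and 0.17 in HF floxed livers. It was at 0.16, 0.53 and 0.46 FPKM in LF knockout livers and at 0.25, 3.03 and 1.37 in HF knockout livers. In each HF group 2 libraries lay above every LF library of the same genotype and the third lay within or below their range, so the groups overlapped. The log2 difference, HF minus LF, was 2.41 ± 0.87 (SE) in floxed and 1.97 ± 0.82 in knockout livers, with edgeR adjusted p of 0.329 and 0.377.

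Top2a, the topoisomerase that untangles sister chromatids, was at 0.02, 0.18 and 0.17 FPKM in LF floxed and 0.94, 0.99 and 0.10 in HF floxed livers. In knockout livers Top2a was at 0.14, 0.40 and 0.50 on LF and at 0.25, 2.25 and 1.24 FPKM on HF. The same libraries were high and low as for Mki67, and the groups overlapped again. The log2 difference of Top2a in floxed livers was 2.12 ± 0.89 (SE; edgeR adjusted p = 0.386).

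Among the drivers of mitotic entry, Ccnb1, which encodes cyclin B1, was at 0.03, 0.32 and 0.16 FPKM in LF floxed, 0.32, 0.33 and 0.22 in LF knockout and 0.70, 1.28 and 0.05 in HF floxed livers. In HF knockout livers it was at 0, 3.91 and 0.51 FPKM. The HF knockout group therefore held both the lowest and the highest Ccnb1 library of the series, with 0 and 143 estimated counts. Its kinase partner Cdk1 was at 0.24, 0.37 and 0.26 FPKM in LF knockout and 0.22, 2.87 and 1.18 in HF knockout livers, a log2 difference of 2.23 ± 0.84 (SE; edgeR adjusted p = 0.353). Foxm1, the transcription factor of this gene set, was at 0.06, 0.13 and 0.16 FPKM in LF floxed and 0.77, 0.94 and 0.07 in HF floxed livers, a log2 difference of 2.04 ± 0.81 (edgeR adjusted p = 0.362). For Cdk1 and Foxm1, too, a single HF library, replicate 1 in the knockout group and replicate 3 in the floxed group, sat at the LF level.

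Of the spindle genes, Kif11 (gene number 16551), the motor that separates spindle poles, was at 0.06, 0.09 and 0.10 FPKM in LF floxed and 0.44, 0.51 and 0.18 in HF floxed livers. All 3 HF floxed libraries were above all 3 LF floxed libraries. The log2 difference was 1.83 ± 0.55 (SE), the smallest adjusted p of a mitotic member in that comparison (edgeR, 0.277). Aurka, a centrosome kinase, was the other mitotic member without overlap there, at 1.18, 1.09 and 0.84 FPKM on LF and 3.45, 2.51 and 1.29 on HF. Those are 2 of 23 tested mitotic members, and 23.6% of all genes tested had all HF floxed libraries above all LF floxed libraries. The microtubule nucleation factor Tpx2 had a log2 difference of 2.54 ± 0.85 (SE; edgeR adjusted p = 0.308) and the midzone protein Prc1 one of 2.39 ± 0.98 (edgeR adjusted p = 0.374), both with HF floxed 3 inside the LF range.

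In knockout livers the 2 mitotic members without overlap were Aurkb and Bub1b, and 5.59% of all genes had all HF knockout above all LF knockout libraries. Aurkb, the kinase of the chromosomal passenger complex, was at 0.10, 0.25 and 0.16 FPKM on LF and 0.35, 2.44 and 0.35 on HF (log2 difference 2.59 ± 0.90 SE, edgeR adjusted p = 0.344). Bub1b, a spindle checkpoint kinase, was at 0.08, 0.03 and 0.22 FPKM on LF and 0.23, 1.15 and 0.52 on HF (2.45 ± 0.84, edgeR adjusted p = 0.344). The gaps were narrow, 0.25 to 0.35 FPKM for Aurkb and 0.22 to 0.23 for Bub1b. Cenpf, a kinetochore protein, had a log2 difference of 2.51 ± 0.95 (SE; edgeR adjusted p = 0.353) at levels of 0.01 to 0.46 FPKM.

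**Figure D2:**
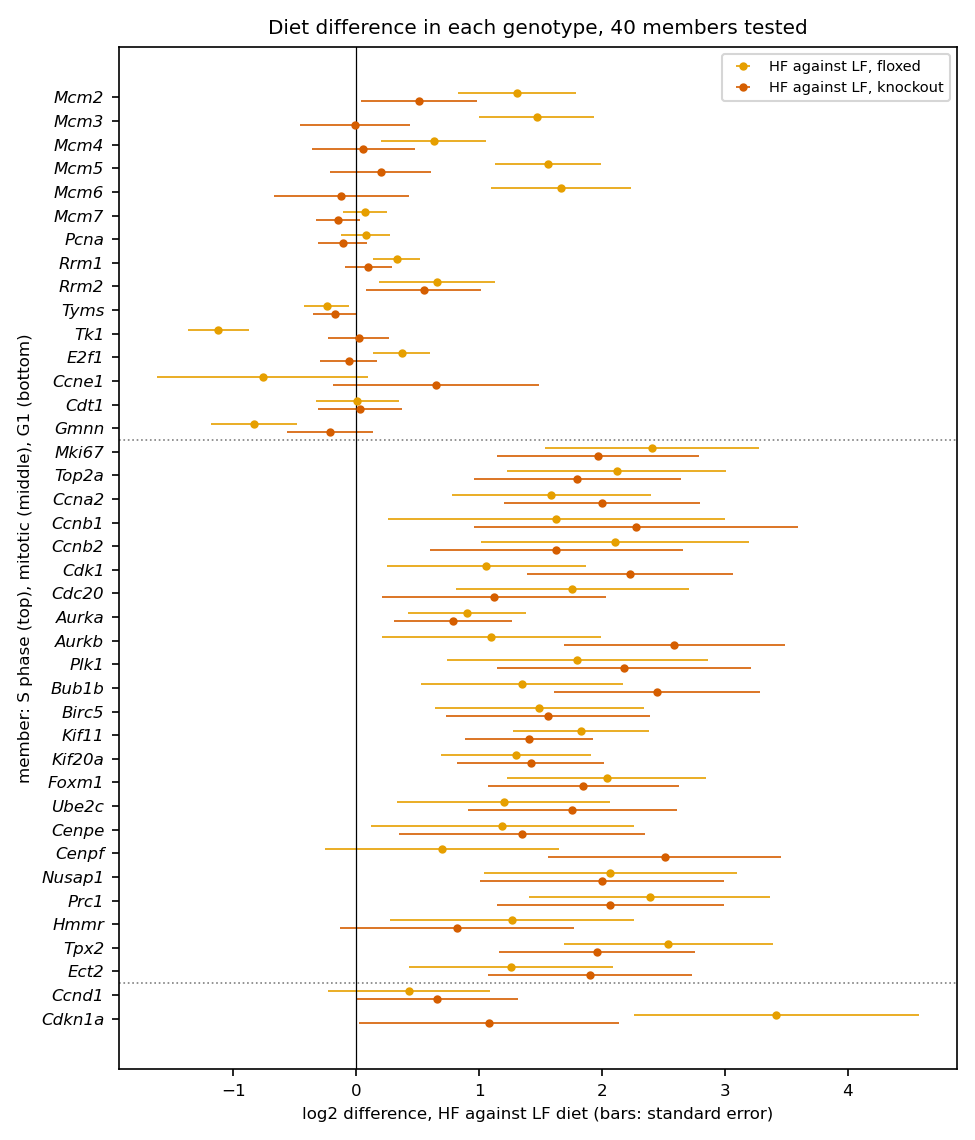
Log2 difference between HF and LF libraries for the 40 tested members, with standard errors, in floxed (yellow) and knockout (orange) livers. All 23 mitotic members lie right of 0 in both genotypes, and Mcm2, Mcm3, Mcm5 and Mcm6 lie well right of 0 in floxed livers.

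The other mitotic members had their highest level in the same library. Ccnb2 and Ccna2, the cyclins B2 and A2, ran from 0.08 to 6.71 and 0.15 to 5.68 FPKM over the 12 libraries, Cdc20, an activator of the anaphase-promoting complex, from 0.18 to 6.63, and the mitotic kinase gene Plk1 from 0.06 to 4.50. Birc5, the survivin of the passenger complex, ran from 0.34 to 7.21 FPKM, the kinesin Kif20a from 0.42 to 3.45 and the cytokinesis factor Ect2 from 0.14 to 2.14. Nusap1, Hmmr and Bub1, which act at the spindle and its checkpoint, and the kinetochore motor Cenpe had maxima of 1.24, 1.75, 0.52 and 0.49 FPKM. Each of these maxima was in HF knockout 2.

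By the unadjusted test, 6 of 23 mitotic members had p under 0.05 and were higher on HF in floxed livers, where 6.85% of all genes did, and none was lower. The 6 were Mki67, Top2a, Kif11, Foxm1, Prc1 and Tpx2. In knockout livers 12 of 23 did, against 8.81% of all genes, and averaged over the genotypes 19 of 23 did, against 10.4%. At the false discovery rate of 5% the background was 0% of genes in floxed livers, 0% in knockout livers and 0.00794% (1 gene) for the average, and no member was called. DESeq2 called 254, 126 and 403 genes in these comparisons. Among them were 2 members in floxed livers (Mcm5 and Tk1), none in knockout livers, and 8 for the average: Bub1b, Ccna2, Foxm1, Kif11, Mki67, Prc1, Top2a and Tpx2.

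The count in knockout livers rested on a few libraries. Without HF knockout 2 it was 0 of 23, against 6.13% of all genes in that fit, the median log2 difference was 0.52 rather than 1.90, and 19 of 23 members were still higher. Without LF knockout 1 the count was 1 of 24, below its share of 6.27% of all genes. It was 4 of 24 without LF knockout 2 (5.73% of all genes), 3 of 24 without LF knockout 3 (5.97%) and 21 of 24 without HF knockout 1 (12.9%). In floxed livers it was 2 of 24 without LF floxed 1 (6.1% of all genes), 2 of 23 without HF floxed 2 (3.93%) and 3 of 24 without HF floxed 1 (3.8%). It was 10 of 24 without HF knockout 1 (8.34%), 12 of 23 without HF knockout 2 (9.51%) and 16 of 24 without HF floxed 3 (7.97%). Without both HF floxed 3 and HF knockout 1, whose files are named in another form than the rest, it was 19 of 24 in floxed and 23 of 24 in knockout livers, against 9.79% and 13.2% of all genes. With the alike pairs averaged, 1 of 24 mitotic members in floxed and 2 of 24 in knockout livers had p under 0.05, near the 3.1% and 4.51% of all genes, while the medians were 1.30 and 2.02. Averaged over the genotypes, the 19 of 23 became 12 of 24 with the pairs averaged (5.77% of all genes), 10 of 23 without HF knockout 2 (8.81%; median 1.05) and 4 of 23 with both changes (5.38%), the last chosen after seeing the data.

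HF knockout 2 was the highest library for all 24 mitotic members and both G1 members, and 22% of all genes tested were highest there. The level of the mitotic members in it was 3.7 to 17.3 times the median of the other 11 libraries, with a median of 8.46. The summed level of the 24 mitotic members was 82.1 FPKM there. It was 4.18, 8.42 and 9.45 FPKM in LF floxed, 8.47, 13.4 and 12.1 in LF knockout, 35.9, 37.8 and 6.12 in HF floxed, and 7.13 and 22.5 in HF knockout 1 and 3. The largest share came from Ube2c, the ubiquitin conjugase of the anaphase-promoting complex, at 14.6 FPKM in HF knockout 2 and 0.35 to 4.64 in the other libraries. HF floxed 3 was the lowest of its group for 24 of 24 mitotic members (67.8% of all genes tested), and HF knockout 1 for 22 of 24 (56.8% of all genes). Among the S phase members these counts were 15 of 15 and 13 of 15.

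**Figure D3:**
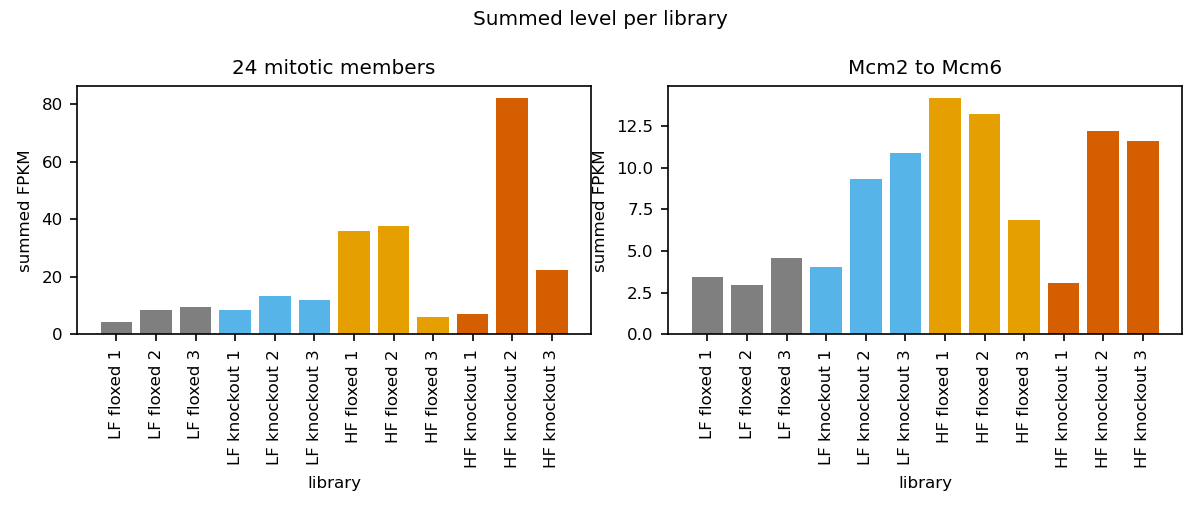
Summed FPKM per library of the 24 mitotic members (left) and of Mcm2 to Mcm6 (right), coloured by group. The mitotic sum peaks at 82.1 in HF knockout 2, while the Mcm2 to Mcm6 sum is highest in HF floxed 1 at 14.2 and lies between 9.32 and 13.2 in HF floxed 2, HF knockout 2 and 3 and LF knockout 2 and 3.

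Other genes moved with these libraries. HF knockout 2 had Afp, the fetal serum protein of liver, at 29.98 FPKM against 0.09 to 0.61 in the other 11, and Gpc3, a glypican of fetal liver, at 101.49 against 0 to 0.89. The 8 fetal liver and liver tumour markers in the files summed to 870 FPKM there, 326 and 316 in HF floxed 1 and 2 and 3.2 to 24.5 elsewhere. Most of the sum in HF knockout 2 and in HF floxed 1 and 2 was Ly6d, at 567.93, 315.73 and 306.99 FPKM. The 8 cholangiocyte and ductular markers summed to 775 FPKM in HF knockout 2 and 29.3 to 120 elsewhere. Spp1 made 743.15 of the sum in HF knockout 2. Of the 8 markers, 5 were highest in that library, where 22% of all genes tested were highest. The biliary keratin Krt19 was not among them, at 0.92 within the range of 0.32 to 1.87 of the others.

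Marker sums of neutrophils, haematopoietic progenitors and erythroid precursors peaked in other libraries, and those of lymphoid and plasma cells in HF knockout 2. The 10 neutrophil markers summed to 4.85 FPKM in HF knockout 2 and 539 in HF knockout 3, against 1.94 to 13.9 elsewhere. The 6 haematopoietic progenitor markers summed to 3.34 FPKM in HF knockout 2, 4.18 and 3.87 in HF floxed 1 and 2 and 0.42 to 2.79 elsewhere, and Myb was at 0 in HF knockout 2. The 11 erythroid precursor markers summed to 1110 FPKM in HF knockout 2, within 576 to 2440 in the others. The 11 T, NK and B cell markers summed to 10.1 FPKM in HF knockout 2 and 3.37 to 8.9 elsewhere, and the 5 plasma cell markers to 285 and 141 to 246. Highest in HF knockout 2 were 3 of the 11 and 4 of the 5, beside 22% of all genes tested. Only 3 of the 5 plasma cell markers passed the filter on low counts. In every library but HF knockout 2, 1 or 2 of the 5 were at 0. Kupffer cell (131 FPKM) and endothelial (58.5) marker sums in HF knockout 2 lay within the range of the other libraries. The 10 hepatocyte markers summed to 104000 FPKM in HF knockout 2 and 42200 to 75400 elsewhere. Only 2 of the 10 were highest in that library, as were 22% of all genes tested, so the sum does not describe the set. 

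The marker sum of monocytes and lipid-associated macrophages was high in the same libraries as the mitotic sum. Only 1 of the 10 markers was highest in HF knockout 2, where all 24 mitotic members were highest, beside 22% of all genes tested. The 10 markers summed to 24.7, 33.4 and 73.7 FPKM in LF floxed, 34.7, 29.0 and 27.1 in LF knockout, 111, 104 and 29.1 in HF floxed and 51.7, 112 and 118 in HF knockout livers. HF floxed 1 and 2 and HF knockout 2 and 3, which had the 4 highest mitotic sums, were also the 4 highest here. The same libraries were the 4 highest for the cholangiocyte and ductular, fetal liver and liver tumour, haematopoietic progenitor and endothelial marker sums. This shared order is one of sums, which a single gene such as Spp1 can dominate. What it reflects was not tested. Averaged over the genotypes 10 of 10 monocyte and lipid-associated macrophage markers had a positive diet difference (median 1.89 log2 units), and 7 had an unadjusted p under 0.05, against 10.4% of all genes. The 10 stellate and myofibroblast markers summed to 59.3, 73.5 and 104 FPKM in LF floxed and 194, 213 and 110 in HF floxed livers, and to 71.7, 106 and 106 in LF knockout and 40.9, 90.5 and 144 in HF knockout livers. In floxed livers the stellate sums were thus higher in HF floxed 1 and 2, as the mitotic sums were, and HF knockout 2 was not high. The part of any of these cell types in the level of the mitotic members was not tested.

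Promoters of the members were examined because the mitotic members were high in the same libraries. RefSeq windows (GRCm38.p6) from 250 bases before to 50 after the annotated start were matched for 33 of 41 members by gene. The sequences below are the 160 bases before the start, 5′ to 3′ on the gene's strand; the first 5 are mitotic members and the last 3 hold E2F letters, with Cdk1 both. Capitals mark the letters searched on both strands: the cell cycle homology region CHR (TTTGAA or TTTAAA), the CCAAT box, and the E2F letters TTTCCCGC, TTTGGCGC, TTTCGCGC and TTTGCCGC, which can overlap each other and the CCAAT letters.
Ccnb1 (chr13:100786487-100786646, minus strand): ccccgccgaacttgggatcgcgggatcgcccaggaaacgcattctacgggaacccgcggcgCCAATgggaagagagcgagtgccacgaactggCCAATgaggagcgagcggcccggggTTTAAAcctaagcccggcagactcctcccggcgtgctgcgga
Cdc20 (chr4:118437344-118437503, minus strand): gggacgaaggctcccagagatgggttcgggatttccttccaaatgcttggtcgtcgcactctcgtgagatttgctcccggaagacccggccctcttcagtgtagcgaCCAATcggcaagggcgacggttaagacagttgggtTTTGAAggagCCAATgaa
Kif11 (chr19:37376222-37376381, plus strand): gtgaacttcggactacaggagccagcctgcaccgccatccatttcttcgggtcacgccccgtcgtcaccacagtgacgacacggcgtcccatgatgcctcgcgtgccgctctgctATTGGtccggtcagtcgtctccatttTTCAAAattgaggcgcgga
Ube2c (chr2:164769769-164769928, plus strand): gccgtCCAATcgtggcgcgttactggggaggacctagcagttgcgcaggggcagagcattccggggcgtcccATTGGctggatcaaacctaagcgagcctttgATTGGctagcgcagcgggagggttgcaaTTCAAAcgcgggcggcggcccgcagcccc
Plk1 (chr7:122159275-122159434, plus strand): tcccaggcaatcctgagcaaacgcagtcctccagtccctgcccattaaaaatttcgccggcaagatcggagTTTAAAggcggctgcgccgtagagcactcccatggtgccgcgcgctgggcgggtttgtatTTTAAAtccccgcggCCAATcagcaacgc
Cdk1 (chr10:69352913-69353072, minus strand): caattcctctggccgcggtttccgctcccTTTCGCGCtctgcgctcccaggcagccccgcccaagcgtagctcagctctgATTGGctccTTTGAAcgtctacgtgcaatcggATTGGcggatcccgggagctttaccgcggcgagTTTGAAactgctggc
Mcm5 (chr8:75109349-75109508, plus strand): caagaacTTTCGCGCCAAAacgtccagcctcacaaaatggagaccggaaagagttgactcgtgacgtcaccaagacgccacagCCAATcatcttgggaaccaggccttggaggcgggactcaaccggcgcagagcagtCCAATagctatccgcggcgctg
Mcm6 (chr1:128359706-128359865, minus strand): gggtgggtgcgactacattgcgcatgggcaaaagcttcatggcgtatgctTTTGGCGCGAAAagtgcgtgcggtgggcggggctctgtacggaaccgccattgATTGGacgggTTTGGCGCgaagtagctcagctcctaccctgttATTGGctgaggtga

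CHR letters were present in 19 of 21 mitotic windows (90.5%), against 27.6% of all 32851 windows and 5 of 14 S phase windows (35.7%). CCAAT letters were in 90.5% of mitotic, 64.3% of S phase and 37.4% of all windows, and both sets of letters together were in 85.7%, 21.4% and 10.7%. The E2F letters had the reverse pattern: 35.7% of S phase windows, 4.76% of mitotic windows (Cdk1 alone) and 2.26% of all windows. The 31 windows of other mitotic genes held CHR letters in 74.2%, and the 32 windows of other replication genes held E2F letters in 34.4%. A match describes the letters only, and the 12 libraries carry no measure of binding.

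**Figure D4:**
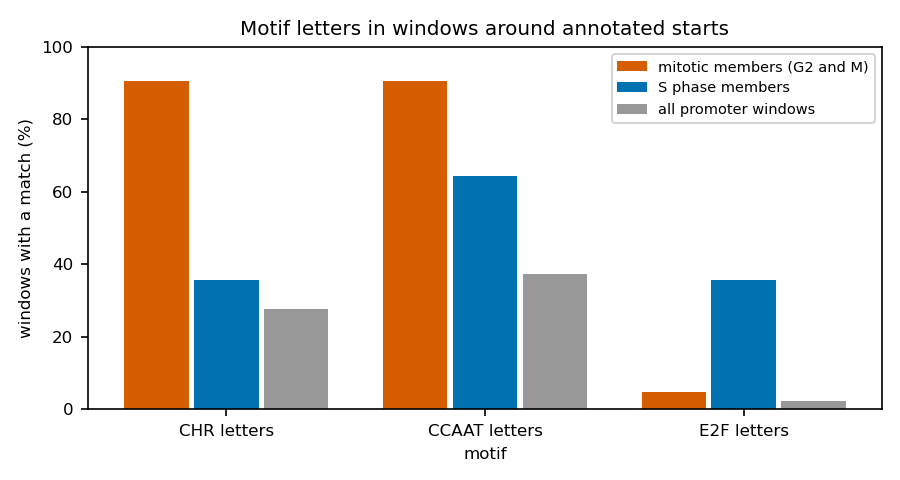
Share of 300-base windows around annotated starts that hold each set of letters, for mitotic members (21 windows), S phase members (14) and all 32851 windows. CHR letters are in 90.5% of mitotic windows and E2F letters in 35.7% of S phase windows, against 27.6% and 2.26% of all.

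The S phase members did not move together by diet. The MCM helicase subunits Mcm2, Mcm3, Mcm5 and Mcm6 were higher on HF in floxed livers, Tk1 and Gmnn were lower, and Pcna, Mcm7, Tyms and Cdt1 differed little. In floxed livers 4 of 15 had an unadjusted p under 0.05 and were higher, with a background of 6.85%, and 2 were lower, with one of 5.32%. The 4 became 2 without LF floxed 1 (6.1% of all genes) and 2 with the alike pairs averaged (3.1%), and the 2 lower became 1 with the pairs averaged and without any one of LF floxed 2, LF floxed 3, HF floxed 2 or HF floxed 3. In knockout livers none did, in either direction, against 8.81% of all genes in the higher direction.

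Mcm5 (gene number 17218) was at 0.42, 0.40 and 0.43 FPKM in LF floxed and 2.21, 1.45 and 0.87 in HF floxed livers. It was at 0.62, 1.18 and 1.29 FPKM in LF knockout and 0.48, 1.73 and 1.37 in HF knockout livers. The floxed groups did not overlap, and the knockout groups did. The log2 difference in floxed livers was 1.56 ± 0.43 (SE; edgeR adjusted p = 0.253, DESeq2 adjusted p = 0.0424).

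Mcm3 was at 0.81, 0.75 and 0.97 FPKM in LF floxed, 0.73, 2.49 and 3.08 in LF knockout, 3.52, 3.27 and 1.80 in HF floxed and 0.88, 2.66 and 2.72 in HF knockout livers. Only the floxed groups were apart by diet: in knockout livers each diet had 1 low and 2 high libraries. The diet difference of Mcm3 in floxed livers was 1.47 ± 0.47 log2 units (SE; edgeR adjusted p = 0.292). Mcm2 and Mcm6 differed by 1.31 ± 0.48 and 1.67 ± 0.57 log2 units there (edgeR adjusted p = 0.331 and 0.313), again without overlap between the floxed groups. In all, 9 of 15 S phase members had every HF floxed library above every LF floxed library in FPKM, beside 23.6% of all genes tested. They were Mcm2 to Mcm7, E2f1, Rrm1 and Rrm2. On counts the log2 differences of Mcm4, Rrm2, E2f1, Rrm1 and Mcm7 were 0.63, 0.66, 0.37, 0.33 and 0.07. The scales differ: the median over the genes each fit kept was 0.20 with limma on log2(FPKM + 1) and 0.00 with edgeR on counts. Rrm1 and Rrm2 encode the subunits of ribonucleotide reductase, and E2f1 an activating E2F factor.

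Mcm7 belongs to the same helicase but ran from 4.18 to 7.87 FPKM over all 12 libraries. The sliding clamp Pcna ran from 11.90 to 24.67 FPKM and the thymidylate synthase Tyms from 4.28 to 6.67. Neither peaked in HF knockout 2, where Pcna was at 13.17 and Tyms at 4.94 FPKM. Ccne1, the G1/S cyclin, was at 1.98 FPKM in HF knockout 2 against 0.18 to 1.15 elsewhere. With Mcm2 and Rrm2 it was 1 of 3 S phase members of 15 highest in that library, close to the 22% of all genes. HF knockout 2 was at a median of 1.13 times the median of the other libraries over the S phase members, beside 8.46 times over the mitotic members.

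Tk1 (gene number 21877), the thymidine kinase of nucleotide salvage, was at 6.35, 8.57 and 11.71 FPKM in LF floxed and 5.22, 4.70 and 4.68 in HF floxed livers. It was at 7.47, 5.16 and 5.25 FPKM in LF knockout and 5.73, 5.90 and 6.20 in HF knockout livers. Every LF floxed library was above every HF floxed library, and the knockout groups overlapped. How many of all genes had every LF floxed library above every HF floxed library was not counted. The log2 difference in floxed livers was -1.12 ± 0.25 (SE; edgeR adjusted p = 0.19, DESeq2 adjusted p = 0.0107). Gmnn, geminin, which blocks relicensing of origins, was at 3.29, 5.12 and 5.79 FPKM in LF floxed and 3.96, 3.61 and 2.13 in HF floxed livers, an overlap, with a log2 difference of -0.83 ± 0.35 (edgeR adjusted p = 0.386).

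**Figure D5:**
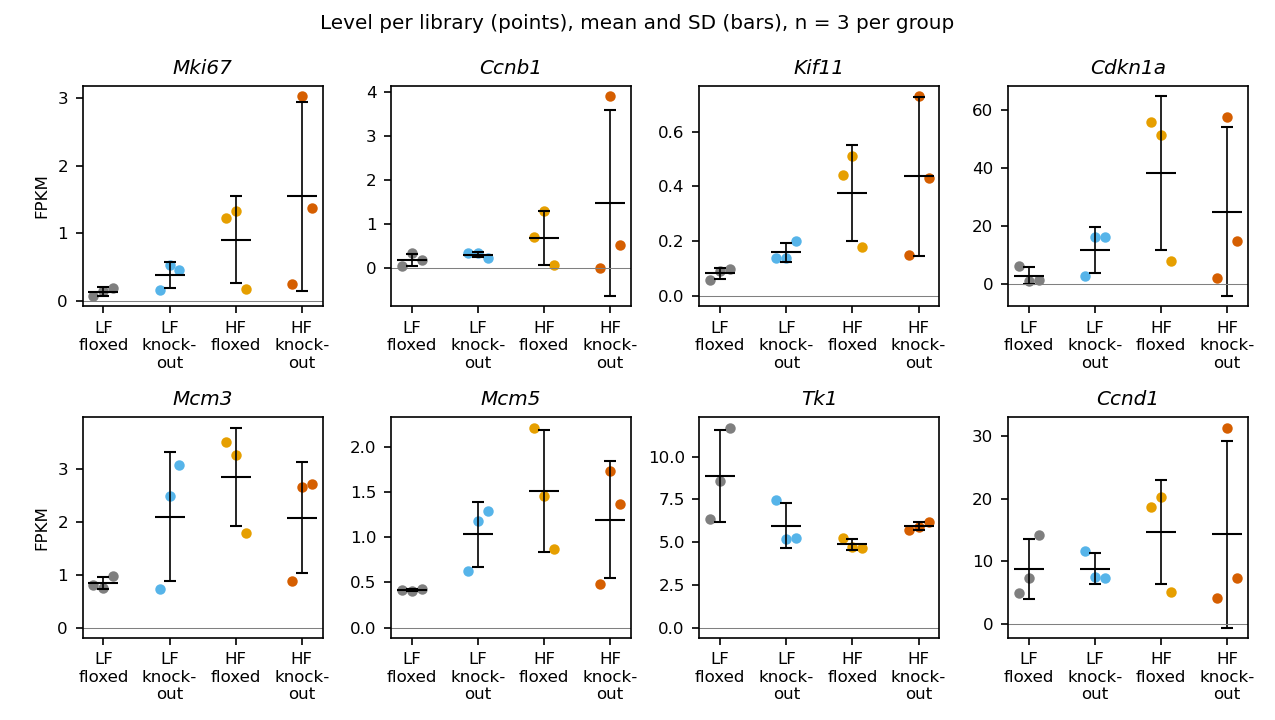
FPKM in each library (points) with group mean and SD (bars, n = 3) for 8 members. Mcm5 and Mcm3 are tightly grouped in LF floxed livers, Tk1 is highest there, and Mki67, Ccnb1, Kif11, Cdkn1a and Ccnd1 have their highest point in an HF knockout library.

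Of the G1 members, Cdkn1a (gene number 12575), which encodes the kinase inhibitor p21, was at 6.22, 0.98 and 1.21 FPKM in LF floxed and 55.92, 51.33 and 7.73 in HF floxed livers. It was at 2.53, 15.99 and 16.28 FPKM in LF knockout and 2.05, 57.79 and 14.86 in HF knockout livers. The floxed groups did not overlap by diet and the knockout groups did. The log2 difference in floxed livers was 3.42 ± 1.16 (SE; edgeR adjusted p = 0.311). Ccnd1, cyclin D1, was at 4.90, 7.26 and 14.13 FPKM in LF floxed, 11.60, 7.47 and 7.29 in LF knockout, 18.67, 20.27 and 5.05 in HF floxed and 4.06, 31.38 and 7.37 in HF knockout livers. The same 3 libraries, HF floxed 1 and 2 and HF knockout 2, were highest for both genes.

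Between genotypes on HF, 22 of 23 mitotic members were higher in knockout than in floxed livers on average, with a median log2 difference of 0.53, and the groups overlapped for all 23. None had an unadjusted p under 0.05, against 4.59% of genes higher in knockout, and at the false discovery rate 0% of genes and no member were called (DESeq2 called 69 genes and no member). Without HF knockout 2 the direction turned, with 4 of 23 higher and a median of -0.65. The median was 0.10 without HF floxed 3, 0.94 without HF floxed 2, 1.03 without HF knockout 1 and 0.84 without HF knockout 3. The S phase members had a median of -0.13, and 0.06 without HF knockout 1. Tk1 had all HF knockout libraries above all HF floxed libraries, 1 of 15 S phase members beside 2.25% of all genes.

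Between genotypes on LF, 17 of 23 mitotic members were higher in knockout livers, with a median of 0.59, and none had an unadjusted p under 0.05. The median was 0.15 without LF floxed 1, with 15 of 24 higher, and 0.93 without LF floxed 2. Of the S phase members Mcm3 (log2 difference 1.12 ± 0.47 SE) and Mcm5 (1.11 ± 0.43) were higher and Tk1 (-0.73 ± 0.25) and Gmnn (-0.80 ± 0.35) lower at an unadjusted p under 0.05, all with an edgeR adjusted p of 0.929. These are 2 of 15 higher and 2 lower, against 2.58% and 2.55% of all genes. No S phase member had an unadjusted p under 0.05 in either direction with the alike pairs averaged, without LF knockout 2 or without LF knockout 3. Without LF floxed 2 none was higher and 1 lower, without LF floxed 1 there was 1 higher, and without LF floxed 3 none was lower. Hmmr, Kif11, Tpx2, Mcm5 and Rrm1 had all LF knockout above all LF floxed libraries, as did 16% of all genes. At the false discovery rate 0.0159% of genes (2) and no member were called, and DESeq2 called 34 genes and no member.

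The diet difference itself was compared between genotypes by the interaction term. The term was negative for Mcm3 (-1.49 ± 0.65 log2 units, SE), Mcm5 (-1.35 ± 0.59) and Mcm6 (-1.79 ± 0.79), whose diet differences were 1.47, 1.56 and 1.67 in floxed livers and within their standard error of 0 in knockout livers. It was positive for Tk1 (1.15 ± 0.36), whose diet difference was -1.12 in floxed livers and also within its standard error of 0 in knockout livers. The edgeR adjusted p were 0.508, 0.509, 0.516 and 0.421. These 4 of 40 members are close to the 9.55% of all genes with an unadjusted p under 0.05 in either direction. The 3 negative terms under 0.05 rested on many libraries: none was left with the alike pairs averaged or without any one of LF floxed 1, LF floxed 2, LF knockout 2, LF knockout 3, HF floxed 1, HF floxed 2 or HF knockout 1, and 1 was left without LF floxed 3. For the mitotic members the median interaction was 0.07, with 12 of 23 positive and none under 0.05. Single libraries turned its direction: it was -1.03 without HF knockout 2, with 4 of 23 positive, -0.36 without HF floxed 3, -0.29 without LF floxed 3, -0.13 without LF floxed 2 and -0.11 without LF knockout 1, and reached 0.43 without HF knockout 1, with 20 of 24 positive. At the false discovery rate 0.0159% of genes (2) and no member were called, and DESeq2 called 107 genes and no member.

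Other genes of the same steps were read against the same shares of all genes: at an unadjusted p under 0.05, 6.85% were higher and 5.32% lower on HF in floxed livers, and 8.81% higher and 3.38% lower in knockout livers. Of 35 tested among 40 other mitotic genes, 29 were higher on HF in floxed livers (median 0.88) and 31 in knockout livers (median 1.01), smaller medians than those of the mitotic members. At an unadjusted p under 0.05, 2 were higher and 1 lower in floxed livers, and 4 higher and 1 lower in knockout livers, counts near the shares of all genes. For the average over genotypes, 13 were higher and 1 lower (median 1.1), where 10.4% of all genes were higher and 608 of 12587 lower. None of these genes was called there, and their smallest edgeR adjusted p was 0.223. Smc2, a condensin subunit, had a log2 difference of 1.57 ± 0.54 (SE) and Cks2, a Cdk1 adaptor, one of -0.42 ± 0.15 in floxed livers (edgeR adjusted p = 0.314 and 0.329). In knockout livers the kinetochore genes Nuf2 and Spc24 differed in direction, at 2.37 ± 1.00 and -0.85 ± 0.27 (edgeR adjusted p = 0.386 and 0.344). Between genotypes on HF, Spc24 was at -0.90 ± 0.27 and the kinesin Kif15 at 1.76 ± 0.82 (edgeR adjusted p = 0.598 and 0.662).

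Of 29 tested among 34 other replication genes, 20 were higher on HF in floxed livers (median 0.18) and 15 in knockout livers (median 0.02). At an unadjusted p under 0.05, 5 were higher and 1 lower in floxed livers, against 6.85% and 5.32% of all genes, and none in knockout livers. With the genotypes averaged, 2 were higher and none lower, where 10.4% of all genes were higher. Chaf1a, a histone chaperone of the replication fork, had a log2 difference of 1.61 ± 0.52 (SE) and the DNA ligase Lig1 one of 1.14 ± 0.45 in floxed livers (edgeR adjusted p = 0.301 and 0.356). In knockout livers the smallest p-values belonged to Uhrf1, a maintenance factor of DNA methylation, at 1.76 ± 0.93 and Pola2, a primase complex subunit, at -0.46 ± 0.25 (edgeR adjusted p = 0.469 and 0.487). On HF, Rpa1, which coats single-stranded DNA, was at -0.45 ± 0.21 and Pola2 at -0.49 ± 0.25 between genotypes (edgeR adjusted p = 0.663 and 0.686).

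Of 24 other G1 genes, all tested, 3 were higher and 1 lower at an unadjusted p under 0.05 in floxed livers (median -0.10), against 6.85% and 5.32% of all genes. In knockout livers 6 were higher and none lower (median 0.24), against 8.81% and 3.38%. With the genotypes averaged, 4 were higher and 1 lower, where 10.4% of all genes were higher. The pocket protein gene Rbl1 was at 2.03 ± 0.50 log2 units (SE) and Cdk2 at -0.63 ± 0.22 in floxed livers (edgeR adjusted p = 0.215 and 0.311). Cdkn2b, which encodes the inhibitor p15, was at 33.90 FPKM in HF knockout 2 and 0.09 to 0.69 in the other libraries, and Cdkn2a, which encodes p16 and p19, at 27.29 and 0 to 2.60. Their log2 differences by diet in knockout livers, 5.88 ± 1.66 and 5.08 ± 1.45 (both edgeR adjusted p = 0.344), were 0.53 and 2.86 without that library. Between genotypes on HF, Cdkn2a was at 6.36 ± 1.60 and Cdkn2b at 4.57 ± 1.5 (edgeR adjusted p = 0.564 and 0.598), and 4.14 and -0.77 without it.

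Of 18 p53 target genes, 15 were higher on HF in floxed livers (median 0.76) and 16 in knockout livers (median 0.45). At an unadjusted p under 0.05, 3 were higher and none lower in floxed livers, against 6.85% and 5.32% of all genes, and 4 higher and 1 lower in knockout livers, against 8.81% and 3.38%. For the average over genotypes, 9 were higher and none lower, where 10.4% of all genes were higher. The smallest edgeR adjusted p of a p53 target there was 0.23. Eda2r, a TNF receptor family member, was at 2.78 ± 0.86 log2 units (SE) and the nuclease Aen at 0.86 ± 0.27 in floxed livers (edgeR adjusted p = 0.284 and 0.288). In knockout livers Bbc3, which encodes the cell death protein PUMA, was at 1.02 ± 0.26 and the kinase Plk3 at -2.39 ± 0.65 (both edgeR adjusted p = 0.344). Between genotypes on HF, Plk3 was at -2.13 ± 0.65 and Pmaip1, which encodes NOXA, at 1.2 ± 0.67 (edgeR adjusted p = 0.598 and 0.704). Plk3 was highest in LF knockout 2 and 3 and HF floxed 1 and 2, at 31.64, 29.70, 33.20 and 30.91 FPKM, and at 3.67 to 13.89 elsewhere.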

How the data were processed

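Liver RNA of 12 libraries was compared in 4 groups of 3. Each deposited file gives estimated counts per gene, whole or fractional, that are not scaled, and FPKM that the authors scaled to gene length and library, per the file headers. The submitters' processing notes name build mm9. Which aligner, counter and annotation were used is not given in the sources used here. Genes absent from a file were taken as 0, and library sizes and tests exclude 1229 loci that have no gene number (6.65 to 17.33% of a library's estimated counts). Of the named genes, 13336969 to 15080378 counts per library remained.

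Rounded counts entered edgeR 4.0.16 (R 4.3.3; TMM, filterByExpr, quasi-likelihood F test) over all 12 libraries, 1 mean per group, with 12587 genes tested and Benjamini-Hochberg adjustment over all of them. The functions were tested on simulated data. Levels are FPKM and differences are from the counts; the depth limits rare members, some of which had fewer than 10 counts in a library. Alternatives were DESeq2 1.42.0, limma 3.58.1 on log2(FPKM + 1) or log2(FPKM + 0.1), other filters and normalization, the compared groups only, a replicate block, averaged pairs and left-out libraries. All 41 members are named, plus at most 2 genes with the smallest p per other list in 3 comparisons (HF against LF in each genotype, and knockout against floxed on HF); marker genes only beside a result. Printed promoters are a subset of members with CHR or E2F letters. Members and lists were chosen with earlier results of these data known.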

Additional observations from a re-analysis of the deposited data

How the results depend on the processing

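The number of genes called changed with the tool and with the libraries left out. In the order HF against LF in floxed livers, in knockout livers and averaged, knockout against floxed on HF and on LF, and the interaction, edgeR called 0, 0, 1, 0, 2 and 2 genes, and DESeq2 called 254, 126, 403, 69, 34 and 107. With HF floxed 3 and HF knockout 1, whose files are named in another form, left out together, the counts were 158, 2, 682, 3, 7 and 5, including 2 members in floxed livers and 19 for the average. Leaving out single libraries gave 0 to 14, 0 to 10, 0 to 7, 0 to 14, 0 to 13 and 1 to 17 genes. With only the compared groups in the fit, 82 genes were called in floxed livers and 11 between genotypes on LF. The replicate block gave 0, 0 and 1 for the average, genotype on LF and interaction. Same-numbered libraries correlated from -0.33 to 0.40, a separate measure from the log count correlations within groups given above. With 3 libraries per group this can neither show nor exclude a pairing by number. Averaged pairs gave 0, 0 and 0 there, as did averaged pairs without HF knockout 2, an alternative chosen after seeing the data. Keeping loci without a gene number gave 3 in floxed livers, 2 for the average and 1 for the interaction. Without a filter 1 gene was called in floxed livers. For genotype on LF, limma gave 0 on log2(FPKM + 1) and 1 on log2(FPKM + 0.1), and the latter gave 1 in floxed livers.

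The mitotic median in knockout livers was 0.73 with limma on log2(FPKM + 1), where 11 members passed the filter, 0.64 with averaged pairs without HF knockout 2, and 0.52 to 2.37 with single libraries left out; the average over genotypes was 0.69 with limma on log2(FPKM + 1). For the S phase members the interaction was -0.43 and -0.58 with limma (pseudocounts 1 and 0.1), the floxed diet median 0.59 and the genotype median on LF 0.27 (pseudocount 0.1). Among the named genes Cdkn2b between genotypes on HF changed sign, to -0.77, without HF knockout 2, and ranged up to 5.17 with other single libraries left out. With limma on log2(FPKM + 1), 0, 0 and 5 of 11 mitotic members had p under 0.05 and were higher by diet in floxed livers, knockout livers and averaged, against 14.7, 4.15 and 10.6% of all genes, and with the replicate block 7, 7 and 16 of 23, against 6.49, 6.31 and 9.04%. The cause of these differences was not tested. The depth limits the mitotic members: Bub1 had 86 counts in all.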
